A study of Drosophila melanogaster with 8 samples.

Results

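The Notch pathway genes analysed here are the receptor N, its ligands Dl and Ser, the glycosyltransferase fng, the nuclear components Su(H), H, gro and mam, and the regulators numb and neur. AGO2 chromatin association at these 10 genes was followed by ChIP-seq in Kc167 (Kc) cells, an established embryonic Drosophila melanogaster cell line, in mock-treated cells and in cells given Triptolide, an inhibitor of transcription initiation, at 10 µM for 60 min. AGO2 is the small RNA binding Argonaute protein of RNA interference, part of which is found on chromatin, and the comparison asks which of its sites are still called when initiation is blocked. The series comprised 8 samples, with 2 AGO2 immunoprecipitations and 2 inputs per treatment, all from the same line. A list of peaks called by the authors was available for each of the 4 immunoprecipitations. The gene fng was chosen by its presence and high fold in the mock lists and its absence from the triptolide lists, and the other 9 genes were picked as members of its pathway with results of these data in view. These values are therefore no finding, and peaks, folds and positions are given as a description with no test. Nothing in the labels says whether the 2 replicates of a treatment came from separate cultures.

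Notch is a cell surface receptor that is cleaved upon binding a ligand on a neighbouring cell, and its released intracellular part enters the nucleus and joins the DNA binding protein Su(H) and the coactivator mam to switch on target genes. Without that signal, Su(H) recruits the corepressors H and gro. The glycosyltransferase fng adds sugars to Notch that favour its response to Dl over Ser. Endocytosis of Dl is driven by the ubiquitin ligase neur, whereas numb limits Notch signalling in the daughter cell that inherits it. In flies the pathway patterns the wing margin, selects neural precursors and acts in blood cell development.

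Every peak that overlapped a member gene or lay within 1500 bp of it was taken, and peaks of any lists that shared at least 1 bp were joined into a site. Mock replicates 1 and 2 had 10 and 10 peaks at the Notch pathway genes out of 1055 and 1919 in the whole lists. Triptolide replicates 1 and 2 had 20 and 14 out of 5594 and 5873. The 4 lists thus differ several-fold in length, and the read depth of the libraries is unknown, so a missing peak says only that the caller's threshold was not passed in that library. Together the peaks formed 27 sites, of which 3 were mock-only (a peak in both mock lists and in neither triptolide list), 9 were triptolide-only (the reverse), 6 were shared between at least 1 list of each treatment, and 9 were seen in a single list. These counts rest on single libraries in part, since mock-only sites numbered 5 without mock replicate 1 or without triptolide replicate 1, triptolide-only sites 14 without triptolide replicate 2, and shared sites 3 without triptolide replicate 1. The classes were then set by the lists that were left. With 1 list of a treatment left, presence or absence in that list was enough, so the rises come with this looser rule.

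Each of the 10 genes had a peak in at least 1 list. In both mock lists, peaks were found at 5 genes, N, Ser, fng, gro and mam. Of the mock lists, only replicate 2 held a peak at Dl and numb, and Su(H), H and neur had none in mock. In both triptolide lists, peaks were found at 7 genes, Dl, Ser, Su(H), H, gro, mam and neur, whereas N, fng and numb had none. Across all 13968 protein-coding genes, 6.67% had a peak in both mock lists and 30.0% in both triptolide lists. The members are long genes, with a median of 22832.5 bp against 2164.5 bp for all protein-coding genes, and a long gene offers more room for a peak. Among the 4337 protein-coding genes at least as long as Su(H), the shortest member at 3847 bp, the shares were 15.9% for both mock lists and 44.5% for both triptolide lists. Since the members were chosen with such results known, nothing is read from the distance between these shares and the members' own counts.

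**Figure D1:**
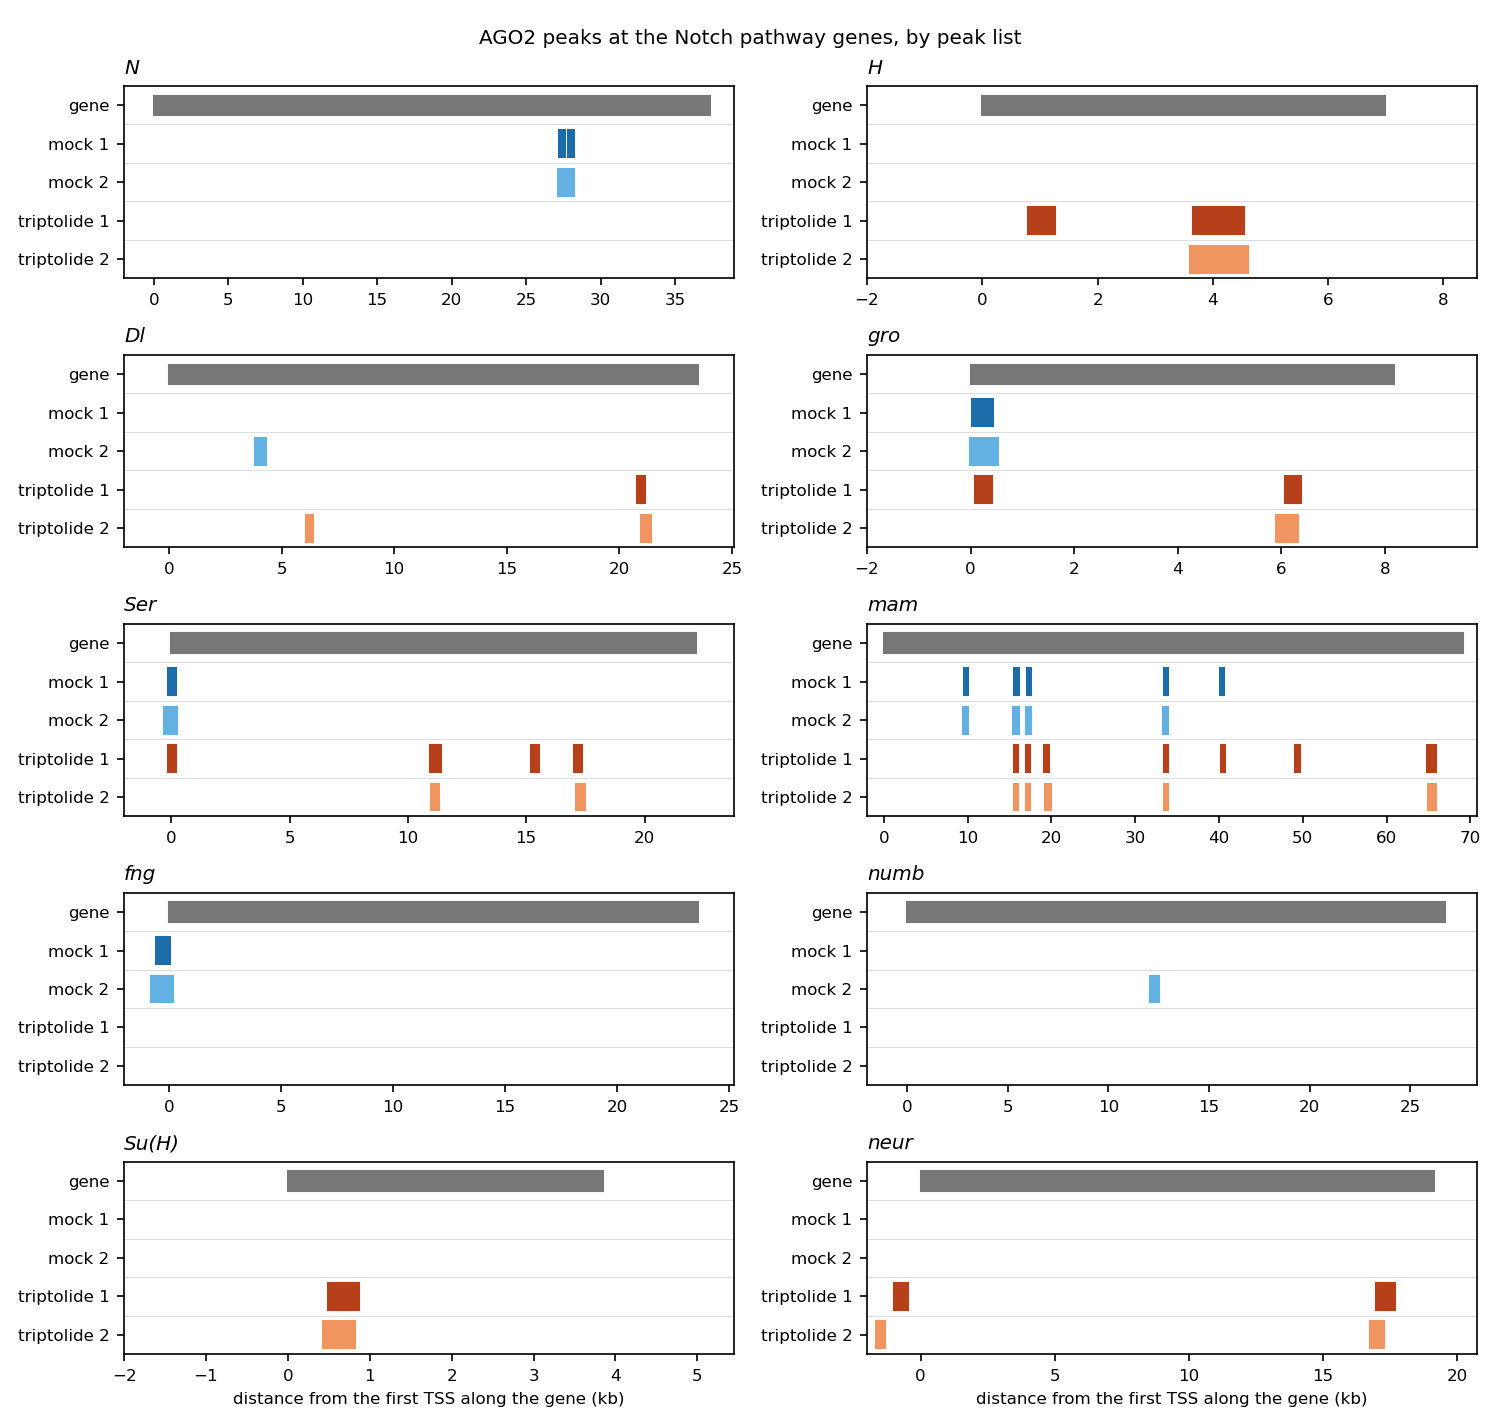
Peaks at the 10 Notch pathway genes in the 4 lists, drawn along each gene from its first TSS (x axis, kb, with the gene as a grey bar and peaks as coloured bars, short peaks widened to stay visible). Mock peaks sit at or upstream of starts or in introns, N, fng and numb have no triptolide peak, and Su(H), H and neur have no mock peak.

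Among the sites absent upon Triptolide treatment, fng had the highest fold enrichment. Its site lay at the single TSS of the gene (fng, FBgn0011591, minus strand, chr3L:20925891-20949512 in dm6) and spanned chr3L:20949334-20950325. Fold enrichment over local background at the summit was 8.25 in mock replicate 1 and 17.00 in mock replicate 2, with −log10 q-values of 39.9 and 131. Ranked by score, these were peak 66 and peak 32 of their lists. The summits fell 196 and 169 bp upstream of the TSS, in intergenic sequence. The nearest peaks in triptolide replicates 1 and 2 were 53503 and 53498 bp away, so no weaker peak was called in the neighbourhood either.

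The receptor gene N (FBgn0004647, plus strand, chrX:3134870-3172221) had the other mock-only site outside mam, inside an intron at chrX:3162004-3163083. Mock replicate 1 held 2 peaks here, with folds of 7.42 and 5.43, and mock replicate 2 held 1 wide peak with a fold of 8.15. Their summits were between 27393 and 28040 bp downstream of the annotated TSS of N and at least 10230 bp from any TSS. In contrast to fng, this is therefore no annotated promoter. The nearest triptolide peaks lay 204160 and 128149 bp away.

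Over all peaks, 70.7% and 62.6% of summit windows in mock replicates 1 and 2 held the letters GAGAG, the core of the element bound by GAGA factor. At the members 8 of 10 and 9 of 10 windows of these lists did so, among them all 7 mock-only peak windows, which came from 3 sites. The sequence around the mock summits of the fng and N sites is shown. Each window is the summit base in mock replicate 2 with 50 bases on either side, read 5′ to 3′ on the strand of the gene from the RefSeq Release 6 genome, and capitals mark every GAGAG on that strand. The fng window is chr3L:20949631-20949731 and has 5 overlapping matches, and the N window is chrX:3162216-3162316 and has 3.
fng: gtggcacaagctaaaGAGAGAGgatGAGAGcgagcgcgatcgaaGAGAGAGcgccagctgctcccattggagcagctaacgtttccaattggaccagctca
N: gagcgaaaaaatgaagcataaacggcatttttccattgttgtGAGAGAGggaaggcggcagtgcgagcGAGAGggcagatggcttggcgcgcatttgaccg

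Ser and Dl encode the transmembrane ligands of Notch. At Ser (FBgn0004197, minus strand, chr3R:27172090-27194267) the mock site covered the first TSS at chr3R:27194040-27194559. Its folds were 3.05 and 4.75 in mock replicates 1 and 2 and 2.77 in triptolide replicate 1, with no peak in triptolide replicate 2. The summits lay 13 and 83 bp upstream and 16 bp downstream of the TSS, so it was the same place that was called. The mock peaks stood at score percentiles of 18.8 and 58.7 within their lists, against 93.8 and 98.4 for fng. The 2 triptolide-only sites of Ser were far inside the gene, at chr3R:27182879-27183320 with folds of 3.43 and 4.15 in triptolide replicates 1 and 2, and at chr3R:27176778-27177267 with folds of 2.80 and 3.79. All 4 of these summits fell in coding sequence, between 10833 and 16989 bp from the nearest of the 2 annotated TSSs of Ser.

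Dl (FBgn0000463, minus strand, chr3R:19302731-19326217) had no site in both mock lists. Mock replicate 2 alone held an intronic peak 4000 bp downstream of the TSS, at chr3R:19321924-19322393, with a fold of 3.90 and a score percentile of 21.7. The triptolide-only site at chr3R:19304805-19305413 had folds of 2.89 and 3.57, with summits in coding sequence 20977 and 21225 bp from the TSS. Thus at both ligand genes the sites of the 2 treatments were of different kinds, noncoding sequence in mock and coding sequence upon Triptolide, apart from the Ser start site.

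Of the nuclear components, gro, the Groucho corepressor (FBgn0001139, plus strand, chr3R:26041736-26049911), had a mock site that was still called in 1 triptolide list. It spanned chr3R:26041729-26042261, with folds of 5.16 and 8.89 in mock replicates 1 and 2 and 3.08 in triptolide replicate 1. The summits were 49, 53 and 81 bp upstream of an internal TSS of gro, in an intron of its longer transcripts. This site also lies within 1500 bp of E(spl)m8-HLH, a Notch target gene of the neighbouring Enhancer of split complex, and cannot be given to one gene over the other. A triptolide-only site further down, at chr3R:26047641-26048125, had folds of 2.67 and 3.63 and both summits in coding sequence.

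The promoter windows of gro and Ser are shown for comparison with fng, since these sites kept a peak in 1 triptolide list. They are chr3R:26041977-26042077 for gro, with 7 overlapping GAGAG matches, and chr3R:27194300-27194400 for Ser, with 1, and are drawn in the same way. The number of matches therefore differed between the members' start sites. At Ser it also differed between replicates, with 2 at the summit of mock replicate 1. Whether the number of matches goes with the loss of a peak upon Triptolide was not tested.
gro: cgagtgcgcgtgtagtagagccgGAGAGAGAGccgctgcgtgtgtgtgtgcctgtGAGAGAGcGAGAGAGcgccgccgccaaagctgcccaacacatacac
Ser: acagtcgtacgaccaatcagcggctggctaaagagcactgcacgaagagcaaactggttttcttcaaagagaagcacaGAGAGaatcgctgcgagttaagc

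Su(H), the DNA binding protein of the pathway, and H, the Hairless adaptor that tethers corepressors to it, had peaks after Triptolide only. At Su(H) (FBgn0004837, plus strand, chr2L:15039488-15043334) the site was chr2L:15039919-15040353. Its folds were 4.64 and 3.68 in triptolide replicates 1 and 2, at score percentiles of 94.3 and 79.1. The summits were 685 and 627 bp downstream of the TSS, in coding sequence. At H (FBgn0001169, plus strand, chr3R:20621938-20628915) the site was chr3R:20625536-20626544, with folds of 3.79 and 3.91 and summits 4437 and 3966 bp into the gene, also in coding sequence. For H the nearest mock peaks were 139116 and 151726 bp away, and for Su(H) 224173 and 16550 bp.

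The regulators neur and numb were called in different treatments. At neur (FBgn0002932, minus strand, chr3R:9020348-9039471) the triptolide-only site chr3R:9022181-9022709 had the lowest folds of that kind, 2.30 and 2.60, and its summits fell in coding sequence that also carries an exon of the antisense RNA asRNA:CR31429. A pair of further peaks counted for neur, 1 in each triptolide list, lay 470 and 1323 bp outside the gene in the coding sequence of its neighbour hyx. These were the peaks closest to the limit of 1500 bp on the inside, with folds of 3.18 and 3.08, and the closest on the outside were 1829 and 1893 bp from neur, with folds of 3.16 and 2.13. At numb (FBgn0002973, plus strand, chr2L:9437469-9464184) mock replicate 2 alone held a peak, at chr2L:9449558-9449994, 15 bp upstream of an internal TSS. Its fold was 6.13, and the nearest triptolide peaks were 44229 and 44234 bp away.

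Of the 18 triptolide-only peak windows at the members, which came from 9 sites, 9 held CAGCAG. With peaks of every class, 8 of 20 and 5 of 14 member windows in triptolide replicates 1 and 2 did so, against 28.3% and 30.2% over all peaks. The summit windows of 3 triptolide-only sites with these letters are shown. For each site the window is that of the triptolide replicate with the higher −log10 q-value, replicate 1 for Su(H) and replicate 2 for H and neur. At H the summit of the other replicate had 0 matches. Capitals mark CAGCAG, a stretch searched on both strands that was picked after these windows had been seen. The windows are chr2L:15040123-15040223 for Su(H) with 5 overlapping matches, chr3R:20625854-20625954 for H with 2, and chr3R:9022399-9022499 for neur with 1, each on the strand of its gene.
Su(H): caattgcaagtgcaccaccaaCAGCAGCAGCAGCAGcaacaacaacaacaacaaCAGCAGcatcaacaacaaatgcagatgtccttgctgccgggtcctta
H: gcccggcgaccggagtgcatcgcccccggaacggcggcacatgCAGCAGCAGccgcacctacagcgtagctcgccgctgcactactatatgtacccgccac
neur: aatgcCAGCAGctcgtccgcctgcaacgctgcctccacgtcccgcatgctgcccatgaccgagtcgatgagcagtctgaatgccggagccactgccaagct

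With all members together, GAGAG on either strand was found in the summit windows of 8 of 10 and 9 of 10 peaks in mock replicates 1 and 2, and in 5 of 20 and 3 of 14 in triptolide replicates 1 and 2. Over all peaks of the same lists the shares were 70.7%, 62.6%, 14.9% and 12.5%. CAGCAG was found in 0 of 10 and 0 of 10 mock windows and in 8 of 20 and 5 of 14 triptolide windows, with 13.2%, 11.9%, 28.3% and 30.2% over all peaks. The members thus followed the split of the whole lists. By class, all 7 mock-only peaks, which came from 3 sites, and 1 of the 18 triptolide-only peaks held GAGAG, and 9 of the 18 held CAGCAG. At shared sites GAGAG was found in 8 of 11 mock and 6 of 9 triptolide peaks, so it was not particular to mock-only sites. Shares by class over all peaks of the series were not computed. The letters GTGNGAA, the core of the element bound by Su(H), occurred in 1 window of each list, always at the same site in mam, against 5.91%, 5.44%, 3.08% and 2.61% of all windows. The E-box CANNTG was found in 5 of 10, 4 of 10, 11 of 20 and 6 of 14 windows, against 34.5%, 38.7%, 45.0% and 46.3%. These are matches of letters and not sites of bound factors.

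The pathway gene with the most sites was mam, the Mastermind coactivator, which is also the longest member at 69154 bp. It held 8 of the 27 sites, of which 4 were shared, 1 was mock-only, 2 were triptolide-only and 1 was seen in a single list. Of the 27, it had the 3 that were called in all 4 lists.

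At mam (FBgn0002643, plus strand, chr2R:13991203-14060356) these 3 sites were all in introns. The first, chr2R:14006628-14007361, had folds of 7.23 and 14.72 in mock replicates 1 and 2 and of 4.88 and 3.53 in triptolide replicates 1 and 2. The second, chr2R:14008192-14008746, lay 717 to 731 bp upstream of an internal TSS and had folds of 6.35 and 16.67 in mock and 4.18 and 4.39 upon Triptolide. It ranked as peak 93 and 26 of the mock lists and as peak 52 and 55 of the much longer triptolide lists, so its standing within each list was high in both treatments. The third, chr2R:14024487-14025176, had folds of 6.50 and 13.87 in mock and of 6.45 and 4.62 upon Triptolide. At each of the 3 sites the higher triptolide fold was below the lower mock fold, by a narrow margin in the third. The summits of the 4 lists lay within 18, 14 and 65 bp of each other.

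The remaining sites of mam showed the same types as the other genes. The mock-only site, chr2R:14000695-14001252, was intronic with low folds of 3.30 and 3.63, and the nearest triptolide peaks were 5510 and 5579 bp away. One further intronic site, chr2R:14031387-14031802, was called in mock replicate 1 with a fold of 4.36 and in triptolide replicate 1 with 3.00, with summits 129 and 67 bp upstream of an internal TSS. The triptolide-only sites were chr2R:14010341-14011110, with folds of 3.73 and 3.74, and chr2R:14056074-14057123, with folds of 2.89 and 3.00, both in coding exons.

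**Figure D2:**
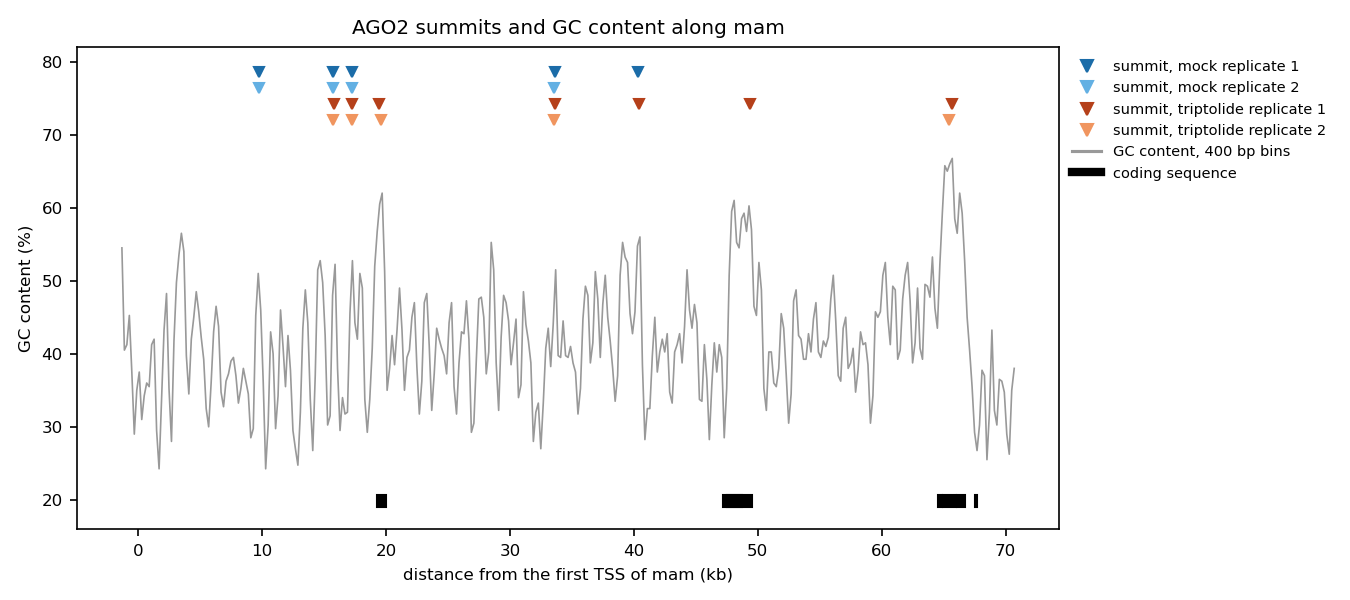
GC content along mam in 400 bp bins (y axis, percent) against distance from its first TSS (x axis, kb), with the summits of the 4 lists as triangles and coding sequence as black bars. The summits seen only upon Triptolide stand over coding blocks, where GC content is high, and the 3 sites called in all 4 lists stand over noncoding sequence.

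Across members, 8 sites were called in both mock lists, and 3 of these, 37.5%, had no peak in either triptolide list. For the whole series this share was 64.6% of 923 sites. A further 3, all in mam, were in both triptolide lists, where 15.7% of all such sites were, and 2, at Ser and gro, were in triptolide replicate 1 only. At the 6 shared sites the mean fold in mock was 1.41 to 2.69 times that upon Triptolide. These means take only the lists with a peak. At Ser and gro the triptolide value is thus replicate 1 alone. At the mam site chr2R:14031387-14031802 each value comes from a single list. Median folds over all peaks, which lay largely at different sites in the 2 treatments, were 5.00 and 4.73 in the mock lists and 3.39 and 3.45 in the triptolide lists. The part of library depth and background in these folds was not tested.

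**Figure D3:**
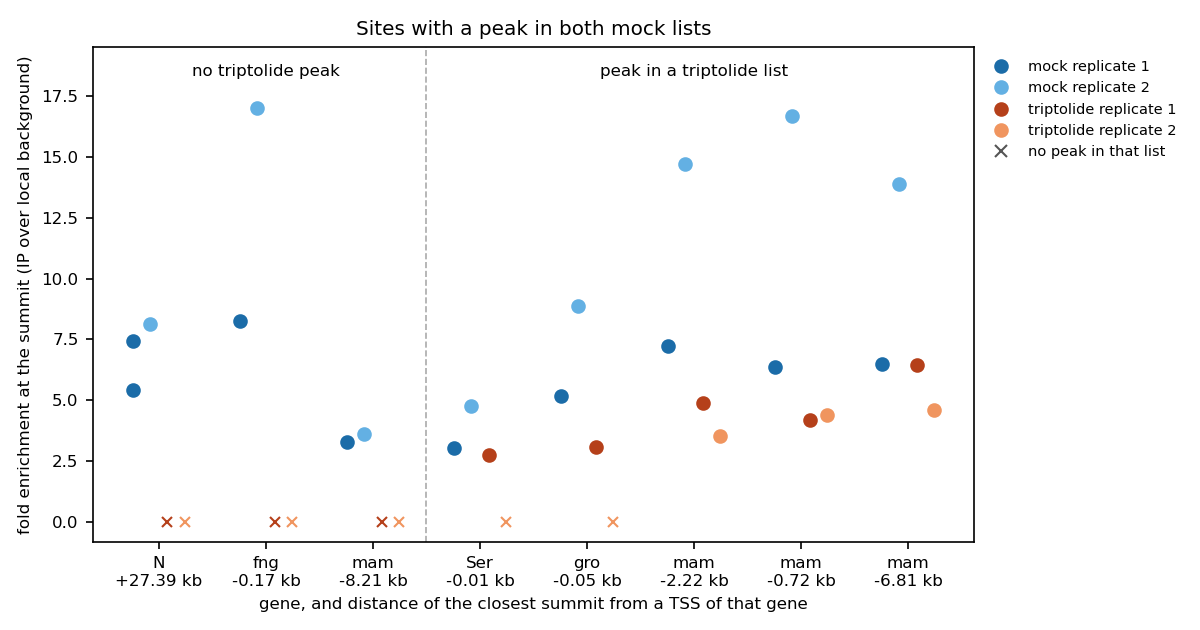
Fold enrichment at the summit (y axis) for the 8 sites with a peak in both mock lists, 1 point per peak and list, with crosses at 0 where a list has no peak. The N, fng and first mam sites have no triptolide peak, and fng and mam have the highest mock folds, up to 17.00.

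In the other direction, 12 sites were called in both triptolide lists, and 9 of them, 75.0%, had no mock peak. For the whole series it was 91.2% of 3050 sites. The 9 sites were spread over 7 genes, and all 18 of their peaks had their summit in coding sequence. For such sites genome-wide, 89.9% had every triptolide summit in coding sequence. Folds of these 18 peaks ranged from 2.30 to 4.64, with a median of 3.60, and the 7 mock-only peaks from 3.30 to 17.00, with a median of 7.42.

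By location, summits at the members fell in coding sequence in 0 of 10 and 0 of 10 peaks in mock replicates 1 and 2, against 6.49% and 9.94% over all peaks of these lists. In triptolide replicates 1 and 2 they did so in 14 of 20 and 11 of 14, or 70.0% and 78.6%, against 81.7% and 86.6%. Of the mock summits, 8 and 8 were intronic and 2 and 2 intergenic. Summits within 500 bp of the TSS of any gene numbered 4, 4, 6 and 1 in the 4 lists, or 40.0%, 40.0%, 30.0% and 7.14%, whereas 58.2%, 54.0%, 25.2% and 22.4% of all peaks were this close. Of those, 4, 4, 3 and 0 were near a TSS of the member itself. The difference between the triptolide replicates was as wide as that between treatments, hence no shift away from start sites can be read from the members.

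GC content moved with the treatment at the members and in the whole lists. The median over the members' peaks was 51.4% and 47.6% in mock replicates 1 and 2 and 57.7% and 60.3% in triptolide replicates 1 and 2, and over all peaks 51.2%, 48.9%, 58.9% and 59.8%. The ranges at the members overlapped, from 42.8% to 59.4% in mock and from 51.2% to 65.7% upon Triptolide. Peaks at one site also differed in width between lists, and a wider peak takes in more of the AT-rich flank. In a fixed window reaching 150 bp to either side of the summit, a measure added after this was seen, the medians were 53.3%, 51.7%, 58.5% and 60.5%. With whole peaks, but only the 1055 top-scoring peaks of each list, the difference between treatments at the members was 3.49 percentage points, against 9.49 with all peaks. In the fixed windows the 18 triptolide-only peaks had 56.5% to 68.4% GC and the 7 mock-only peaks, from 3 sites, 49.5% to 53.2%. Peaks of shared sites had a median of 54.2% in both treatments. Ranges over all sites of the series were not computed. In the wider list below, with 5 mock-only and 23 triptolide-only sites, whole peaks of the classes did overlap. There the mock-only site of dx had 62.2% to 63.3% and a triptolide-only site of ct 50.7% to 52.0%.

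**Figure D4:**
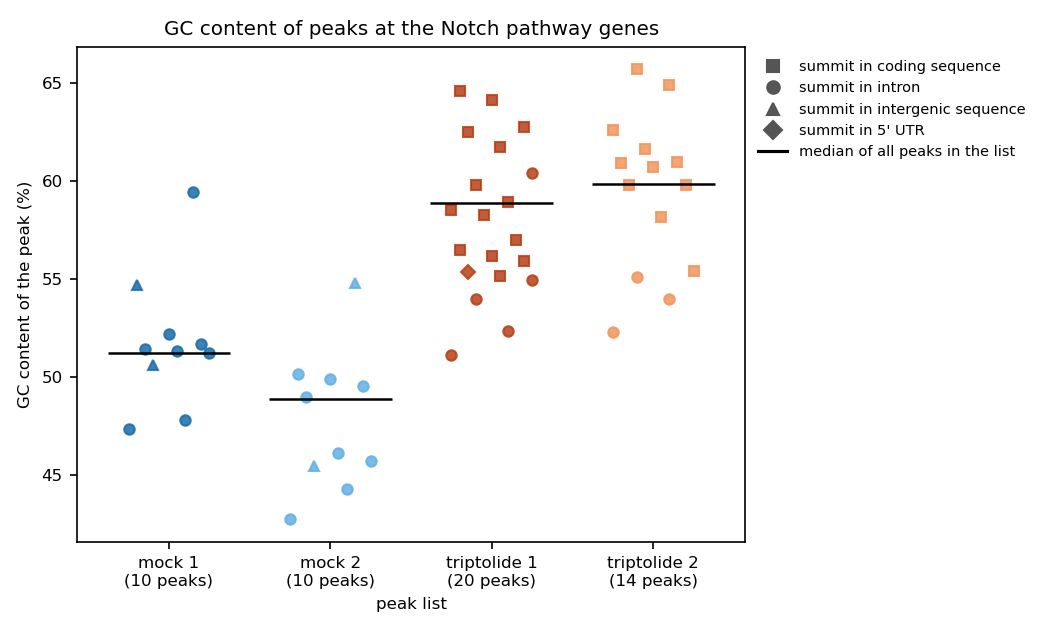
GC content of each peak at the Notch pathway genes (y axis, percent) in the 4 lists, with the marker giving the location of the summit and the line the median of all peaks in that list. Peaks with a summit in coding sequence appear in the triptolide lists only, and both triptolide medians lie above both mock medians.

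Within each gene, coding sequence was richer in GC than introns, at 54.1% to 59.9% against 31.2% to 43.2%. Measured against all windows of the same width in its own gene and flanks, a triptolide-only peak had a GC content at the 95.8th percentile or above, with a median of 99.0. For mock-only peaks the percentiles ranged from 70.9 to 97.5. Hence the triptolide-only peaks lay among the most GC-rich stretches of the 7 genes that had them. Triptolide peaks ranged from 78.4 to 97.3 at shared sites and from 86.9 to 99.7 at single-list sites. These percentiles were not computed for genes other than the members. Whether GC content of the libraries contributes to these calls was not tested.

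The 18 triptolide-only peaks were spread over the score range of their lists, at percentiles from 6.61 to 94.3 with a median of 53.7. Their −log10 q-values ran from 2.13 to 8.34, with a median of 3.99. When only the 1055 top-scoring peaks of each list were kept, the number of peaks in the shortest list, no triptolide-only site was left. Triptolide replicates 1 and 2 then held 4 and 2 peaks at the members, 3 and 2 of them in introns of mam, with Su(H) in replicate 1 as the only other gene. The mock lists still held 10 and 9 peaks, at 5 and 6 genes. Over all genes, coding summits remained frequent among the top peaks of the triptolide lists, at 73.5% and 87.3%.

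A wider list of 51 genes that act in or are controlled by the Notch pathway was described in the same way, and all 51 were found in the annotation. Of these, 8 (15.7%) had a peak in both mock lists, 21 (41.2%) in both triptolide lists, 5 in both lists of both treatments and 19 in none. Over all protein-coding genes the shares were 6.67% for both mock lists and 30.0% for both triptolide lists. These shares were not matched for gene length, which ran from 532 bp (Brd) to 89273 bp (kuz) in the wider list. Among the 12 genes of the Enhancer of split complex, direct Notch targets that mostly encode repressors of the bHLH type or Bearded family proteins, 3 had a peak in both mock lists, E(spl)mbeta-HLH, E(spl)m3-HLH and E(spl)m8-HLH, the last through the gro site. The start site of E(spl)m3-HLH was called with folds of 6.62 and 7.88 in mock and 2.73 in triptolide replicate 1. E(spl)m1 and E(spl)m2-BFM shared a triptolide-only site. Its closest summit lay 366 bp downstream of the TSS of E(spl)m2-BFM. It was 2339 bp from the TSS of E(spl)m1, beyond the end of that gene of 1767 bp.

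Among the other targets, ct and vg, which encode wing margin and wing selector proteins, had peaks in both lists of both treatments, but at different places. At ct the promoter site 110 bp upstream of a TSS was mock-only, with folds of 7.55 and 6.89, and a further mock-only site lay in an intron, whereas 3 triptolide-only sites lay in coding sequence. At vg the promoter was mock-only with folds of 6.21 and 7.90, and 2 triptolide-only sites were coding. The same arrangement was seen at nej, the CBP acetyltransferase, where a site 170 bp upstream of a TSS had mock folds of 8.04 and 4.57. The exceptions were dx and shrb. The gene dx, a regulator of Notch endocytosis, had a mock-only site in coding sequence (folds of 3.33 and 3.54). Near the ESCRT gene shrb a site was called in all 4 lists (folds of 3.89, 3.41, 4.45 and 4.05). Its closest summit lay 932 bp upstream of the TSS of shrb, in coding sequence outside this gene.

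No protease gene of the pathway had a peak in both mock lists, and 4 of 6, Psn, pen-2, kuz and Tace, had peaks in both triptolide lists, where 6.67% and 30.0% of all protein-coding genes did so. These shares were again not matched for gene length. For the sugar transferases it was 0 and 1 of 3 (rumi), for trafficking genes 0 and 2 of 7 (aPKC and bib), for ubiquitylation and sorting genes 2 and 3 of 6 (Nedd4 besides dx and shrb), and for cofactors 1 and 5 of 9 (nej, Bx42, Nle, Hsp83 and sca). At aPKC and at Bx42 the triptolide replicates held peaks at different places, so neither gene had a site called in both. Hey and dpn, both bHLH repressor genes, completed the triptolide set. Over the 61 distinct sites of this wider list, 5 were mock-only, 23 triptolide-only, 6 shared and 27 in a single list. All 23 triptolide-only sites had every summit in coding sequence, as at the members. In the wider list this was not always the coding sequence of the listed gene. At rumi the closest summit lay 2307 bp from the TSS, beyond the end of this gene of 1584 bp.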

How the data were processed

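AGO2 immunoprecipitations from mock- and triptolide-treated Kc cells were analysed as 4 peak lists, and the 4 inputs were not analysed by themselves. Per the submitters' processing notes, which give the versions, and the study's methods, which name later versions of cutadapt and Picard, the authors' pipeline comprised trimming with cutadapt 1.10, alignment against dm6 with bowtie2, a mapping quality filter, duplicate removal with Picard 2.11.0 and peak calling with MACS2 2.1.1.20160309 per replicate against its input. A call on pooled replicates was not used here. The score deposited by the authors is −log10 of the q-value multiplied by 10 and cut to a whole number. The fold deposited by the authors is the ratio of immunoprecipitated over local background signal at the summit. The authors' −log10 p-value and −log10 q-value and the summit position complete the 10 columns of each list, and the lowest −log10 q-value was 1.32. The p-values were not used further. Read counts were not used here, so depth is unknown and gives no interval.

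Genes and TSSs came from the Ensembl annotation BDGP6.54, where Dl is written Delta, and sequence from RefSeq Release 6, the same assembly as dm6. Sites, summit locations, GC content and motifs were computed in Python 3.11.15, after checks on simulated peaks. All 10 members are named, and of the wider list those with a peak in both replicates of a treatment. In that list 4 names were matched through synonyms. The members and lists were chosen with earlier results of these data known. With 2 lists against 2, an exact permutation test cannot go below p = 0.333, and no test was made. Alternatives were a stricter q-value, equal list lengths, other windows and overlaps, leaving out each replicate and GC in a fixed window.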

Additional observations from a re-analysis of the deposited data

How the results depend on the processing

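Of the alternative values, 37 stayed close to those reported, 15 moved and 2 reversed. With −log10 q of at least 5, triptolide-only sites numbered 3, and the GC difference between treatments was 6.82 percentage points, against 9.49. The number of members with a peak, as the mean over the lists of a treatment, was then lower by 2 upon Triptolide (a difference of -2). With all peaks this difference was 1, from 5 and 7 members in mock replicates 1 and 2 and 7 in each triptolide list. With the 1055 top peaks of each list, mock-only sites numbered 5, triptolide-only 0 and shared 3, the difference in members was -4, that in GC content 3.49 and that in summits within 500 bp of a TSS -42.2 percentage points, against -21.4. Both settings keep fewer peaks of the longer lists by construction. With 5000 bp around the genes the TSS difference was -33.5, and in windows of 150 bp on either side of the summit, chosen after seeing the data, the GC difference was 6.98.

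Leaving out each replicate gave 3 to 5 mock-only, 9 to 14 triptolide-only and 3 to 6 shared sites, a difference in members of 0 to 2, in GC content of 7.58 to 11.4 and in summits near a TSS of -32.9 to -10.0. Classes were set here by the lists that were left, a looser rule for the treatment that had lost a list. No paired analysis was possible because the results come from no test: they are counts and medians of called peaks, with no model in which the replicate number could be a block.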
